A study of Mus musculus with 8 samples.

Results

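The Nr4a receptors and 7 other activity-induced genes were followed in the neovascular mouse retina, 10 genes in all out of 57010 gene identifiers in the table. They were chosen by name as immediate early genes outside the Egr and AP-1 families: Nr4a1, Nr4a2, Nr4a3, Ier2, Ier5, Arc, Npas4, Btg2, Homer1 and Crem. Each name matched a single gene, and 9 of the 10 reached the expression filter of at least 1 TPM (transcripts per 1000000, a level corrected for gene length) in at least 4 of the 8 libraries. Arc did not. The retinas came from C57BL/6J mice aged 17 days with oxygen-induced retinopathy, in which high oxygen prunes the retinal capillaries of pups and abnormal vessels grow after the return to room air. Every animal received a self-complementary adeno-associated virus (scAAV), a vector that delivers genes to cells. The 4 control libraries received a control scAAV, and the 4 knockdown libraries one against the long noncoding RNA MM2P. The treatment label of the knockdown libraries reads as a knockout, whereas the title and design speak of a knockdown. No label gives the promoter of the vector, the cells it entered, the day of injection, the hour of collection or whether a library holds 1 animal.

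Immediate early genes are transcribed within minutes of a stimulus, without the need for new protein. In neurons, calcium entry and cAMP act through kinases on CREB, which binds the cAMP response element (CRE), and on serum response factor, which binds the CArG box. Some of the products are transcription factors, such as the Nr4a orphan nuclear receptors and Npas4, and others act directly at synapses, such as Arc and the short form of Homer1. In the retina these genes respond to light, synaptic activity and injury.

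RefSeq promoter sequences on GRCm38.p6 were found for 7 of the 10 members: Nr4a1, Nr4a2, Nr4a3, Ier5, Npas4, Btg2 and Homer1. Ier2, Arc and Crem had no entry. In the 250 bases before the start site, the CRE core TGACG (either strand) occurred in 6 of these 7 genes. Counting both Homer1 starts, the core was in 6 of their 8 windows, and in 17.7% of 32817 promoter windows of the same length. It occurred 4 times in each of the Nr4a promoters and 3 times in the upstream Homer1 promoter, where 0.689% of all windows hold 3 or more. The 5 promoters below are shown because they hold this element, 5′ to 3′ on the strand of the gene, with each TGACG or its reverse complement in capitals:
Nr4a1 (chr15:101266596-101266845, plus strand): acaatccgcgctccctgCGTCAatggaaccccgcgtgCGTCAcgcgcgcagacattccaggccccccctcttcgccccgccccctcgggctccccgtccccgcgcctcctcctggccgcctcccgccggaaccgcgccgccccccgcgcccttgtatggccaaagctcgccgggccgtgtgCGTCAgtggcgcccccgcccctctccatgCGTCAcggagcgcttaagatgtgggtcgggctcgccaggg
Nr4a2 (chr2:57124004-57124253, minus strand): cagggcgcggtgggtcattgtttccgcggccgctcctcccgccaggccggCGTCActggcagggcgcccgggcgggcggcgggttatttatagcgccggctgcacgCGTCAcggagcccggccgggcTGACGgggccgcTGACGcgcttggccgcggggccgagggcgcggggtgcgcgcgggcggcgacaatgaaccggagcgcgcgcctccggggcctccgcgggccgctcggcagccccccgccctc
Nr4a3 (chr4:48045055-48045152, plus strand): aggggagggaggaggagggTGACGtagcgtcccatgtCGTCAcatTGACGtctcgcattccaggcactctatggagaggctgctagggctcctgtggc
Btg2 (chr1:134079156-134079405, minus strand): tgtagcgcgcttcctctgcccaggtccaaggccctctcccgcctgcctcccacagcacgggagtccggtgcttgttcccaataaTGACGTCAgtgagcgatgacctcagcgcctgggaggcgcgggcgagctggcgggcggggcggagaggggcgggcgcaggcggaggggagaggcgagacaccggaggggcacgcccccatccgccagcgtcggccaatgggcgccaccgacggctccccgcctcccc
Homer1 (chr13:93303507-93303756, plus strand): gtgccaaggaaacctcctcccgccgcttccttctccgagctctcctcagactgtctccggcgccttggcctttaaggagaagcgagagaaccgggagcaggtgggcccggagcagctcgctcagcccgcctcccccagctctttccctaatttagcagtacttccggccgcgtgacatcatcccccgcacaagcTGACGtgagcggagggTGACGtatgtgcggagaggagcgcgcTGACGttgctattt

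In Nr4a1 the cores end 229, 209, 65 and 36 bases before the start, and all lie on the opposite strand. Nr4a3 is shown for 98 bases, up to an annotated exon, and its remaining core ends 143 bases before the start. Btg2 alone among the 7 holds the full palindrome TGACGTCA, 159 to 166 bases before its start, which counts as 2 overlapping cores. That palindrome is found in 1.55% of all windows. Npas4 has 2 cores, ending 175 and 165 bases before its start, in a window covered by annotated exons and not printed. Neither Ier5 nor a second, downstream start of Homer1 had the core. The CArG box, the Nr4a element AAAGGTCA and the Egr element GCGTGGGCG were not found in the windows of the 7 genes on either strand, against 1.47%, 1.34% and 0.536% of all windows. These matches describe letters in a window and do not show binding.

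The library totals ran from 20450312 to 21402898 estimated counts in the controls and from 16025695 to 20163448 in the knockdown. The target, listed as Mm2pr (ENSMUSG00000097191), had at most 16.95 counts in a control library and at most 20.61 in a knockdown library, too few to check the labels. The 6 cone photoreceptor markers summed to 1175 to 1279 TPM in the controls and 1064 to 1195 in the knockdown, and the 6 Müller glia markers to 4944 to 5203 and 4841 to 5169 TPM. The sum of the 8 lens markers did not overlap between the groups. It was 1.44 to 4.17 TPM in the controls and 29.1 to 346 TPM in the knockdown. Of the 6 tested lens markers, 5 were called higher by edgeR, among 7 genes called higher of all 16118 tested. None of the 8 was at 0 in every library, and Mip and Lim2 did not reach the filter. Xist ranged from 16 to 49127 counts and the Y-linked Ddx3y from 0 to 1919. Control 2, control 4, knockdown 2 and knockdown 4 held both, with at least 21026 counts of Xist and 814 of Ddx3y. Holding both is the pattern of mixed male and female tissue. Control 3 had 16 counts of Xist and 1919 of Ddx3y, and control 1, knockdown 1 and knockdown 3 had 0 of Ddx3y. The libraries thus differ in these genes, while the groups overlapped in both (edgeR adjusted p = 0.989 for each). The part of sex in the levels of the members was not tested. The labels give no sex. Nothing in the labels says that replicates are separate animals, and p-values measure the spread between these libraries. In bulk retina, fewer cells of a type and less RNA per cell cannot be told apart.

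The members spanned a wide range of levels. Btg2 was the most abundant, with a mean of 121 TPM over the 8 libraries and a range of 116 to 130, above 91.2% of tested genes. Nr4a1 came next with 49.0 TPM (36.5 to 70.8). Homer1 at 28.2 TPM, Ier2 at 27.5 and Ier5 at 17.3 followed, and neighbours among these 3 overlapped in their ranges. Crem at 11.7 TPM and Nr4a2 at 7.33 were separated from each other and from Ier5 without overlap. Npas4 at 1.99 TPM, Nr4a3 at 1.07 and Arc at 0.999 were lowest, and each overlapped with its neighbour in this order. The genes also differ in build. Ier2 spans 1522 bases of chromosome 8 and Ier5 spans 3276 bases of chromosome 1, against a median span of 21259 bases for tested genes, while Homer1 covers 105495 bases of chromosome 13 and Crem 71701 of chromosome 18.

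**Figure D1:**
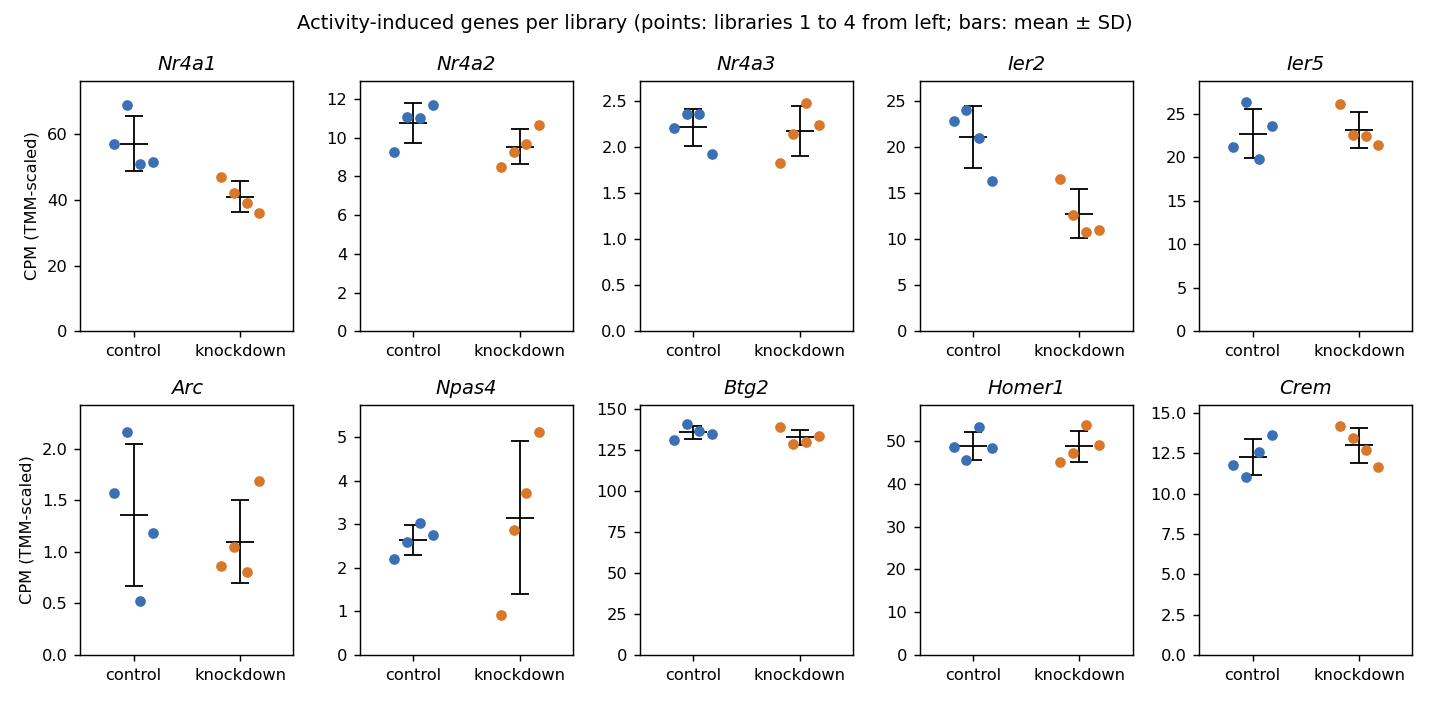
Counts per 1000000 (CPM, scaled by TMM) of the 10 members in each library; points are libraries, bars are the mean and SD of 4 libraries, and each panel has its own axis from 0. Nr4a1 lies between 51.0 and 69.0 CPM in the controls and between 36.0 and 47.1 in the knockdown, the only panel without overlap.

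Nr4a1 and Ier2 had lower levels in the knockdown libraries, and neither passed the test over all genes. Nr4a1 stood at 71.8% and Ier2 at 60.6% of the control level, while Npas4 stood at 119% and the other 7 members between 81.4% (Arc, from the fit without the filter) and 106%. edgeR's quasi-likelihood test called 0 of the 9 tested members at a Benjamini-Hochberg adjusted p under 0.05, where it called 10 genes, or 0.062% of all tested. At an unadjusted p under 0.05 it gave 2 of the 9, Nr4a1 and Ier2, both lower, where the share of all tested genes was 2.66% in that direction and 5.27% in both. A p-value as small as that of Nr4a1 was reached by 0.155% of tested genes. DESeq2 called both (0.279% of tested genes), as did edgeR without the expression filter (0.531%) and edgeR without knockdown 1 (0.0931%), and limma on log2(TPM + 1) called 0 members with 2 at an unadjusted p under 0.05. The remaining alternatives called 0 members. The share of all tested genes they called was 0.36% without control 3, 0.0062% without control 4, 0.062% without knockdown 2 or with other size factors, 0.0496% without knockdown 3, 0.0434% without knockdown 4, 0.00812% at a mean TPM of at least 5 and 0.0682% with the replicate number as a block. It was 0 without control 1, without control 2 and for limma with other pseudocounts.

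Nr4a1 (Nur77; ENSMUSG00000023034; GRCm38 chromosome 15, 101254269 to 101274795) encodes an orphan nuclear receptor whose activity is set mainly by how much of it is made. Controls 1 to 4 had 57.1, 69.0, 51.0 and 51.5 CPM, against 47.1, 42.0, 39.1 and 36.0 CPM in knockdown 1 to 4. All 4 knockdown values lay under the lowest control, control 2 was highest, and the groups did not overlap. That held for 1 of the 9 tested members in this direction and for 1.71% of tested genes. The means were 57.1 ± 8.36 and 41.0 ± 4.73 CPM (SD, n = 4 each), a log2 fold change of -0.48 (SE 0.10, 95% interval -0.69 to -0.26; edgeR adjusted p = 0.200). Its p-value ranked 25 among 16118. Leaving out knockdown 1, the highest of the knockdown libraries, gave -0.55 with an edgeR adjusted p of 0.0463. Leaving out any other library gave an edgeR adjusted p of 0.0688 to 0.638.

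Ier2 (ENSMUSG00000053560; chromosome 8, 84661331 to 84662852) is a short early response gene for a nuclear regulator of transcription. Its level was 22.9, 24.1, 21.04 and 16.4 CPM in controls 1 to 4 and 16.6, 12.7, 10.8 and 11.1 CPM in knockdown 1 to 4. Control 4 and knockdown 1 overlapped, and the other 3 knockdown libraries lay under every control. From 21.1 ± 3.38 to 12.8 ± 2.66 CPM (SD, n = 4 each) the log2 fold change was -0.72 (SE 0.15, 95% interval -1.04 to -0.41; edgeR adjusted p = 0.169), with a p-value at rank 21. Without knockdown 1, the highest knockdown library for Ier2, it was -0.87 (edgeR adjusted p = 0.00984). With any other library left out the edgeR adjusted p was 0.118 to 0.582.

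**Figure D2:**
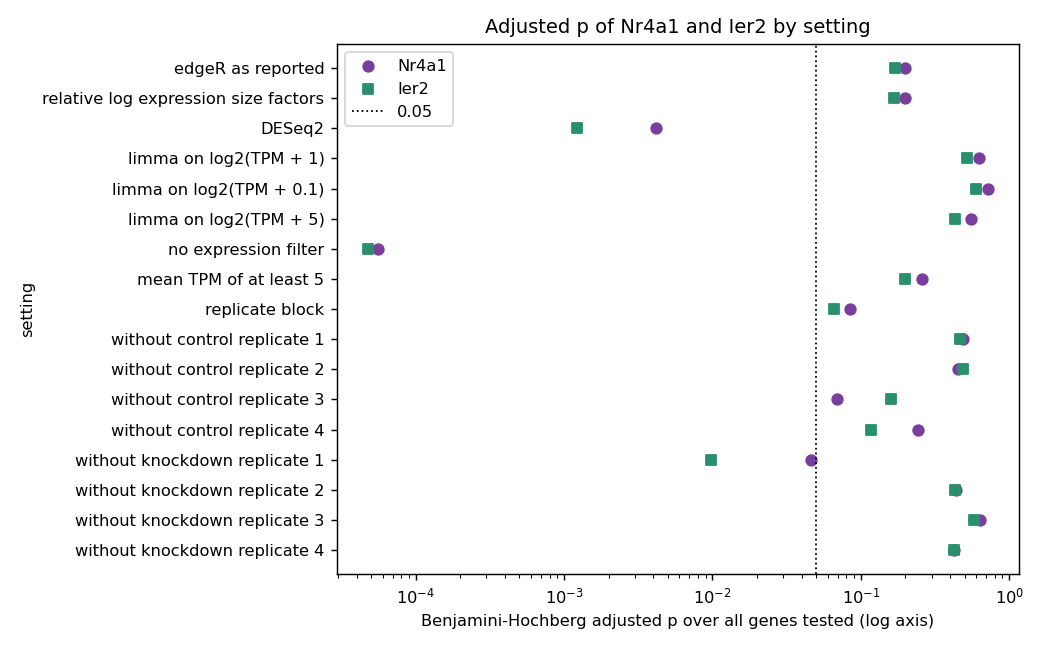
Adjusted p of Nr4a1 (circles) and Ier2 (squares) under each setting, on a log axis, with the threshold of 0.05 dotted. Both genes lie left of the line under 3 of the 16 alternatives: DESeq2, no expression filter and without knockdown replicate 1.

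The other Nr4a receptors were less abundant than Nr4a1 and, like it, did not pass. Nr4a2 (Nurr1; ENSMUSG00000026826), known for its role in dopaminergic neurons, had 9.25, 11.1, 11.04 and 11.7 CPM in the controls and 8.50, 9.27, 9.67 and 10.7 CPM in the knockdown. All 4 knockdown values were under the control mean, but 3 of them were within the control range. The log2 fold change was -0.17 (SE 0.11, 95% interval -0.41 to 0.06; edgeR adjusted p = 0.972). Nr4a3 (Nor1; ENSMUSG00000028341) ranged from 1.92 to 2.36 CPM in the controls and from 1.83 to 2.48 in the knockdown, which contains the control range. Its estimate of -0.03 had a 95% interval of -0.45 to 0.39 (edgeR adjusted p = 0.998), which its 34.02 to 49.77 counts per library leave wide. Summed over the 3 receptors, levels were 65.9 ± 9.97 TPM in the controls and 48.9 ± 2.71 TPM in the knockdown (SD, n = 4 each), and Nr4a1 made up 86.4% ± 2.01 and 83.6% ± 2.81 of that sum. These shares overlapped, at 84.6% to 88.3% and 80.3% to 87.0%. Whether the 3 receptors differ from each other in their fold changes was not tested.

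Npas4 and Arc, both with few counts, varied most over the 8 libraries. For Npas4 the coefficient of variation of CPM was 13.0% in the controls and 55.7% in the knockdown. Npas4 (ENSMUSG00000045903; chromosome 19) encodes a calcium-induced transcription factor that shapes inhibitory synapses. It had 2.20, 2.59, 3.02 and 2.76 CPM in the controls and 0.914, 2.87, 3.72 and 5.11 CPM in the knockdown. The knockdown libraries held both the lowest and the highest value, 17 counts in knockdown 1 and 103 in knockdown 4, a 5.59-fold span in CPM. The log2 fold change was 0.25 (SE 0.35, 95% interval -0.50 to 1.01; edgeR adjusted p = 0.994), and it was -0.09 without knockdown 4 and 0.56 without knockdown 1.

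Arc (ENSMUSG00000022602; chromosome 15) encodes a protein that takes AMPA receptors out of the synaptic membrane. It had 32, 45, 11 and 24 counts in the controls and 16, 20, 13 and 34 in the knockdown, or 1.36 ± 0.689 and 1.10 ± 0.404 CPM (SD, n = 4 each). The lowest and the highest library were both controls. In edgeR without the filter the log2 fold change was -0.30 (95% interval -0.999 to 0.406, adjusted p = 0.869). Its CPM had a coefficient of variation of 50.8% in the controls and 36.8% in the knockdown.

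**Figure D3:**
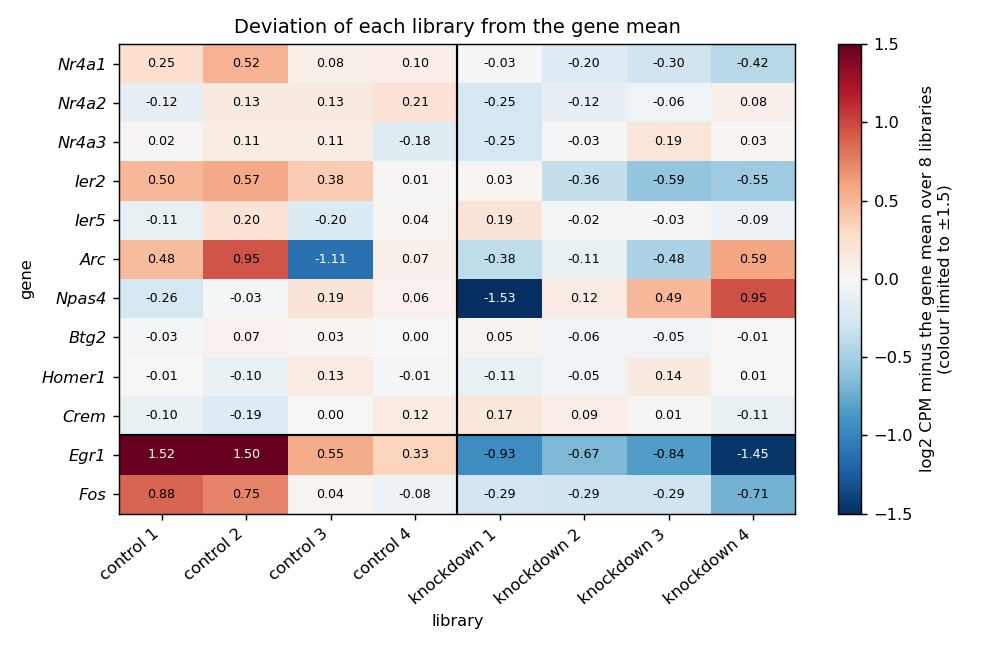
Deviation of each library (columns) from the mean log2 CPM of each gene (rows) over the 8 libraries, with the 10 members above the line and Egr1 and Fos under it. Nr4a1 runs from 0.52 in control 2 to -0.42 in knockdown 4, Npas4 from 0.95 to -1.53, and Btg2 stays within 0.07 of its mean.

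Btg2 and Homer1 varied least between libraries among the tested members. Btg2 (ENSMUSG00000020423; chromosome 1) encodes an antiproliferative protein that recruits the CCR4-NOT deadenylase. It had 131 to 141 CPM in the controls and 128 to 139 in the knockdown, with means of 136 ± 3.995 and 133 ± 4.71 (SD, n = 4 each). The 95% interval of its log2 fold change, -0.13 to 0.07, was the narrowest of the 10 (edgeR adjusted p = 0.997), and 2.96% of tested genes varied less across the 8 libraries. Homer1 (ENSMUSG00000007617) makes a long scaffold protein that links metabotropic glutamate receptors to their partners, and a short activity-induced form that uncouples them. Its groups coincided at 45.6 to 53.4 and 45.2 to 53.8 CPM, with a 95% interval of -0.15 to 0.14 (edgeR adjusted p = 0.998). Counts per gene pool both forms, so the induced form was not measured on its own, and the genes Gm47075 and Gm47088 overlap Homer1 on its strand.

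Ier5 (ENSMUSG00000056708; chromosome 1), which assists heat shock factor 1, had 19.9 to 26.3 CPM in the controls and 21.5 to 26.1 in the knockdown. The extremes were control 3 and control 2, and the fold change was 0.03 with a 95% interval of -0.19 to 0.24 (edgeR adjusted p = 0.997). Crem (ENSMUSG00000063889), a relative of CREB whose internal promoter gives the inducible repressor ICER, ranged from 11.1 to 13.7 and from 11.7 to 14.2 CPM. Its estimate was 0.08, with a 95% interval of -0.13 to 0.30 (edgeR adjusted p = 0.989). The annotation holds 39 Crem transcripts and the opposite-strand Gm6225 across it, so ICER could not be separated here.

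**Figure D4:**
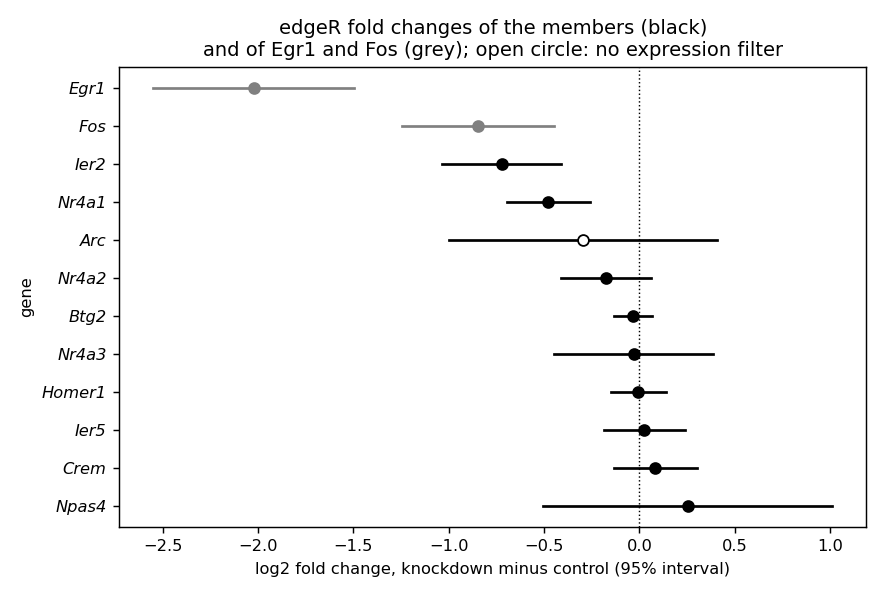
edgeR log2 fold changes (points) with 95% intervals (lines) of the members in black and of Egr1 and Fos in grey; Arc, drawn open, comes from the fit without the expression filter. The intervals of Ier2 (-1.04 to -0.41) and Nr4a1 (-0.69 to -0.26) are the members' only ones that leave out 0, before adjustment for the number of genes.

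Libraries did not rank alike for all members. Control 2 was the highest library for 5 of the 10 genes (Nr4a1, Ier2, Ier5, Arc and Btg2) and the lowest for Crem. Knockdown 1 was the lowest for 4 (Nr4a2, Nr4a3, Npas4 and Homer1) but the highest knockdown library for 5 (Nr4a1, Ier2, Ier5, Btg2 and Crem). The root mean square difference of log2 CPM was taken between genes, each centred on its mean over the 8 libraries. It measures how far apart a pair of genes ran, in the size of changes as well as in their course. For Nr4a1 and Ier2 it was 0.19, and Ier2 ranked 85 of 16117 genes by closeness to Nr4a1, while Nr4a1 ranked 3 by closeness to Ier2. Nr4a2 and Nr4a3 ranked 4602 and 8298 from Nr4a1, and Npas4 ranked 15739. Btg2, which stayed near its mean, ranked 2053 from Nr4a1, ahead of Fos at 4247, which changed more and in the same direction as Nr4a1.

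By the same measure, conventional genes close to Nr4a1 were Parp10, Ly6e, Lrrc32 and Ager (0.12 to 0.13). Those closest to Ier2 were Scarf1, Plscr2, Gpc5, Mlkl and Zc3hav1 (0.18 to 0.22). Their edgeR adjusted p-values ran from 0.214 for Zc3hav1 to 0.989 for Ager. These distances describe 8 libraries that share depth and group, and were not tested. Egr1 and Fos had the controls as their 4 highest libraries, as had Nr4a1, and 1.71% of tested genes were lower in the knockdown without overlap. For these 3 genes and Ier2, controls 1 and 2 held ranks 1 and 2, in either order. In controls 1 to 4 Egr1 had 446, 441, 229 and 197 CPM, and Fos 85.9, 78.4, 48.0 and 44.2. Egr1 was the 1 called gene of 8 tested Egr and AP-1 genes (12 in the table), with a log2 fold change of -2.02 (edgeR adjusted p = 0.0186), and Fos had -0.84 (0.214). Ranked by closeness to Ier2, Fos came 20 and Egr1 15187, and by closeness to Nr4a1 they came 4247 and 15733. The deviations of Egr1 are larger than those of either member, and that size enters its ranks.

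**Figure D5:**
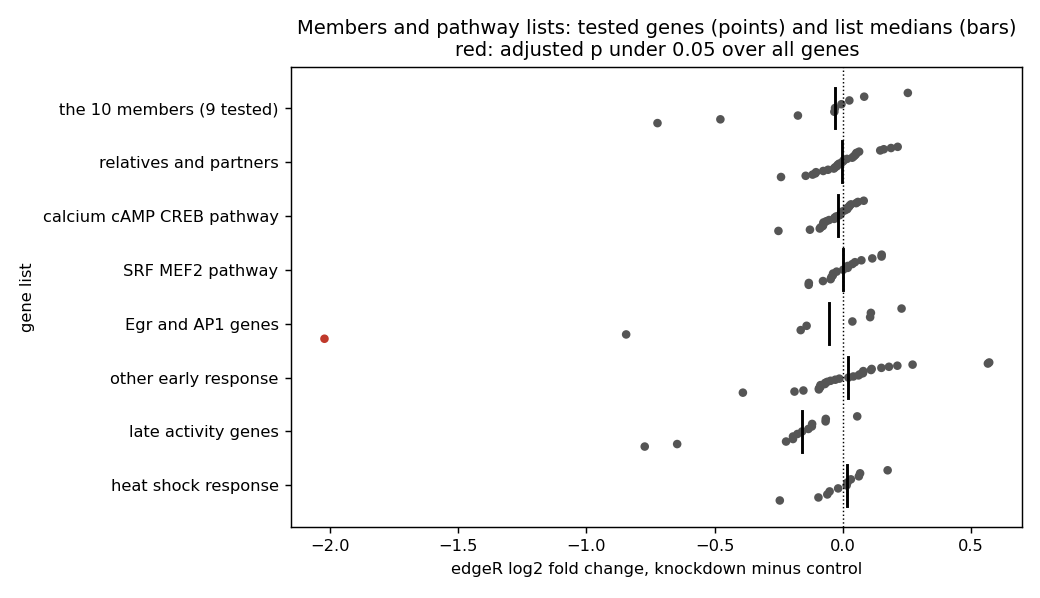
edgeR log2 fold changes of the tested genes (points) in the members and 7 pathway lists, with list medians as bars; red marks the 1 called gene, Egr1 at -2.02. The list medians lie between -0.16 (late activity genes) and 0.02.

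Of the 7 pathway lists around the members, the Egr and AP-1 list alone held a gene called by edgeR, Egr1. The 9 tested members split into 3 positive and 6 negative estimates, and their median log2 fold change was -0.03, beside 0.00 over all tested genes, of which 7775 were negative and 8343 positive. Family relatives and binding partners were split 13 to 13 among 26 tested genes, with 0 called and 2 at an unadjusted edgeR p under 0.05. Those were Arnt2, a dimer partner of Npas4, at 31.6 ± 2.07 and 36.0 ± 3.14 CPM (SD, n = 4), and Tob2, of the Btg family, at 301 ± 11.5 and 278 ± 16.4 CPM. The 26 genes of calcium, cAMP and CREB signalling had 17 negative fold changes and a median of -0.02. None was called and 1 had an unadjusted p under 0.05, the NMDA receptor subunit gene Grin2a at 15.2 ± 1.54 and 12.8 ± 1.53 CPM. Prkar2b, a regulatory subunit of protein kinase A, was next at 57.1 ± 1.11 and 53.7 ± 3.90 CPM.

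Serum response factor, MEF2 and ERK pathway genes had 8 negative of 17 and a median of 0.00. There edgeR called 0, with 2 at an unadjusted p under 0.05: Rps6ka5, the CREB and histone kinase MSK1, at 36.7 ± 1.204 and 40.8 ± 2.84 CPM, and Mef2a at 162 ± 7.09 and 176 ± 9.88 CPM. Other early response genes had 14 negative of 29 and a median of 0.02, with 0 called. Of these genes 3 had an unadjusted edgeR p under 0.05, 2 higher and 1 lower in the knockdown. Klf10, a TGF-beta-induced repressor, had 15.5 ± 1.07 and 18.8 ± 2.13 CPM, and the pseudokinase gene Trib1 100.1 ± 1.599 and 108 ± 4.85 CPM. Among 11 heat shock genes 5 were negative, with 0 called and 0 at an unadjusted p under 0.05. DESeq2 and limma on log2(TPM + 1) also called 0 in each of the 4 lists of relatives, calcium and CREB, serum response factor, and other early response genes, and 0 heat shock genes.

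Late activity genes, which follow the early factors and encode secreted and synaptic proteins, had 12 negative fold changes of 13 and a median of -0.16, where 7775 of all 16118 tested genes were negative. edgeR, DESeq2 and limma called 0 of them, with 4, 4 and 2 at an unadjusted p under 0.05, and edgeR without the filter called Vgf. The 4 from edgeR were all negative, and 2.66% of tested genes were so at that p. The neuropeptide gene Crh had 3.03 ± 0.479 and 1.76 ± 0.344 CPM (SD, n = 4 each; edgeR adjusted p = 0.431). Vgf, a neurotrophin-induced peptide precursor, had 15.7 ± 3.93 and 10.03 ± 2.58 CPM (edgeR adjusted p = 0.536). The 8 markers of retinal ganglion cells all had estimates below 0 (median log2 fold change -0.17). Slc17a6 alone was called, 5 of the 8 were lower at an unadjusted edgeR p under 0.05, and none was at 0. These markers summed to 1399 to 1504 TPM in the controls and 1118 to 1416 in the knockdown, with the least in knockdown 1. Negative fold changes were also found for 5 of 6 endothelial, 6 of 6 cone, 7 of 8 rod and 7 of 8 amacrine cell markers. In these 4 lists 0 were called, and 3, 1, 1 and 1 had an unadjusted edgeR p under 0.05. The endothelial median was -0.19, while the endothelial sums overlapped, at 227 to 270 TPM in the controls and 229 to 242 in the knockdown. Positive fold changes were found for 6 of 6 bipolar, 5 of 5 erythrocyte and 5 of 7 microglia and macrophage markers. Of these 0 were called, and 0, 1 and 1 were higher at an unadjusted edgeR p under 0.05. Müller glia markers split 3 to 3, horizontal cell markers 2 to 2, and pigment epithelium markers had 2 positive and 3 negative. Among the pigment epithelium markers 1 was higher at an unadjusted edgeR p under 0.05. Nr4a1 and Ier2 were highest among knockdown libraries in knockdown 1, and the part of these markers, or of the lens markers above, in the levels of the members was not tested.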

How the data were processed

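RNA extracted with TRIzol from the retinas of 8 libraries was sequenced in read pairs, per the labels' protocols. The submitters' processing notes list Bowtie 0.12.2 and mm9 without saying how each was used. How reads were assigned to genes, and with which annotation, is not given in the sources used here. The authors' table carries TPM in its name, yet the deposited values are estimated counts. Their totals differ between libraries, and 90.6% to 91.9% of a library's values are whole. That share includes zeros, as 22895 to 23824 of the 57010 genes were above 0 in a library. The deposited gene lengths, in bases, were also used, and the authors' 2 group means were not.

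Counts were rounded. TPM came from counts and lengths, and CPM from counts scaled by TMM. Testing covered 16118 of the 29582 genes with a rounded count, those reaching 1 TPM in 4 or more libraries. The test was edgeR's quasi-likelihood test (version 4.0.16, R 4.3.3) with group as the single term. P-values were adjusted by Benjamini-Hochberg over all tested genes and calls made under 0.05. SE is the size of the log2 fold change divided by the root of F, and 95% intervals use edgeR's degrees of freedom. limma 3.58.1 and DESeq2 1.42.0 served as alternatives, beside other filters, size factors, a replicate block and leaving out each library. The members and lists were chosen with earlier results of these data known. Named genes are all members, the called genes of each pathway list or else the 2 with the smallest p, and the 5 genes nearest to Nr4a1 and to Ier2, of which 1 is not reported here. Positions come from GENCODE M21 on GRCm38, which holds 91.3% of the identifiers, and promoters from RefSeq on GRCm38.p6. Depth was 16.03 to 21.4 counts per library in units of 1000000.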

Additional observations from a re-analysis of the deposited data

How the results depend on the processing

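The number of members called by edgeR, 0, became 2 (Nr4a1 and Ier2) under DESeq2 and 2 with no expression filter, and ranged from 0 to 2 when 1 library was left out, 2 only without knockdown 1. The log2 fold changes of Nr4a1 and Ier2 stayed negative in all 16 alternatives, from -0.55 to -0.37 and from -0.87 to -0.61, with adjusted p from 5.58e-05 to 0.716 and from 4.78e-05 to 0.602; the cause of these shifts was not tested. The 10 genes called in all became 45 under DESeq2, 157 with no expression filter and 1 when the mean TPM had to reach 5. They became 0 under limma on log2(TPM + 1), log2(TPM + 0.1) and log2(TPM + 5), with 852, 830 and 802 genes at an unadjusted p under 0.05. Leaving out 1 library in edgeR gave 0 to 58 called genes: 0 without control 1 (674 at an unadjusted p under 0.05), 0 without control 2 (821), 1 without control 4 and 58 without control 3. Called Egr and AP-1 genes then ranged from 0 (without control 1 or 2) to 2 (without control 3), and the other 6 pathway lists had 0 throughout. The sign of members near 0 depended on single libraries: Nr4a3 ranged from -0.0964 to 0.0429, Ier5 from -0.0373 to 0.104, Npas4 from -0.0944 to 0.561 and Homer1 from -0.0531 to 0.0391, and Homer1 was at 0.000102 under limma on log2(TPM + 5). Libraries with the same replicate number did not deviate together (correlations of 0.0100, -0.00251, -0.0421 and -0.0850 over tested genes). Correlations between libraries of unlike numbers ran from -0.115 to 0.123. Such values cannot show whether the number pairs the libraries, and the labels state no pairing. With the replicate number as a block edgeR called 11 genes and 0 members, with adjusted p of 0.0848 for Nr4a1 and 0.0663 for Ier2. Arc, Nr4a3 and Npas4 had the fewest counts of the members, 11 to 103 per library.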
